A study of Mus musculus with 2 samples.

Results

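The genes described here form the Wnt signaling pathway as it could be read in epididymal fat: the Wnt ligands, their receptors, the secreted and intracellular modulators of the pathway, and several of its target genes. They were chosen by gene symbol alone. A probe set was taken if the platform annotation gave it a symbol beginning with Wnt, Fzd, Dkk, Rspo or Lgr followed by a digit, or one of 20 further symbols such as Lrp5, Axin2 or Tcf7l2. This gave 58 genes, each with 1 probe set, of 19505 genes with a symbol on the array. Tcf7 and Rnf43, which the rule also names, had no probe set with that symbol and are not analysed here. The compared mice were WT_A12 mice, which are A/J-12SM consomic mice with chromosome 12 of SM/J on an A/J background, and KO_A12 mice, which are A/J-12SM mice homozygous for a deletion in the first exon of Iah1, made with CRISPR/Cas9. Both groups were males that received the high-fat diet from 6 weeks of age for 12 weeks, and they were deprived of food for 4 h before the tissues were taken. The knockout is systemic and was maintained as 1 homozygous line. RNA from the epididymal fat of 3 mice was pooled for each genotype and hybridized to 1 Clariom S Mouse Array, so that each genotype is 1 value per gene, with no spread between mice or arrays and no test.

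Wnt proteins are secreted lipid-modified ligands that bind Frizzled receptors. With the co-receptors Lrp5 and Lrp6 they prevent the breakdown of beta-catenin, which enters the nucleus, joins transcription factors of the Tcf/Lef family and switches on targets that include the pathway's own inhibitors. In other branches Wnt5a and related ligands act through Frizzled, Ror and Ryk receptors without beta-catenin. In fat, beta-catenin signaling is known for holding preadipocytes in an undifferentiated state, and the secreted frizzled-related proteins, among them the adipokine Sfrp4, can bind Wnt ligands. The array comparison therefore asks whether the genes of the pathway and its target genes had other signals in the KO_A12 pool.

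None of the 58 Wnt pathway genes reached a 2-fold difference between the pools together with the signal limit that the study applied. A gene was called higher if its log2 difference, KO_A12 minus WT_A12, exceeded 1 and its KO_A12 log2 signal exceeded 7. It was called lower if the difference was below -1 while the WT_A12 signal exceeded 7. Among all 22206 probe sets that are not controls, 0.567% were called higher and 0.757% were called lower. At these rates a count of 0 among 58 genes lies near the background and is not a result about the pathway. The median log2 difference of the 58 genes was 0.03, with 32 above and 26 below 0 (5 of them so near 0 that another scaling turned their sign), and the median over all probe sets was 0.00, with 11109 above and 11065 below 0. The differences of the Wnt pathway genes lay between -0.63 for Ror1 and 1.05 for Nkd2. An absolute log2 difference over 0.5 was found for 7 of the 58 genes, or 12.1%, compared with 18.9% of all probe sets.

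Many of these genes gave weak signals. The array carries 23 background controls, whose log2 signals ran from 2.88 to 7.14 on the WT_A12 array with a median of 5.75, and from 2.83 to 7.21 on the KO_A12 array with a median of 5.61. Of the 58 genes, 21 had a log2 signal over 7 on both arrays, 2 on 1 array only (Fzd2 and Axin2), and 35 on neither. For 27 of these 35 both signals were below the background medians, so their differences are given as values only. The 21 genes over 7 on both arrays had a median log2 difference of 0.00 and ranged from -0.63 to 0.81, and 18 of them differed by less than 0.3. The median for the 9841 probe sets over 7 on both arrays was -0.04. Signals of different probe sets depend on their probes, so each gene was compared only with itself between the pools. The plot of the signals of all 58 genes shows both arrays side by side.

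**Figure D1:**
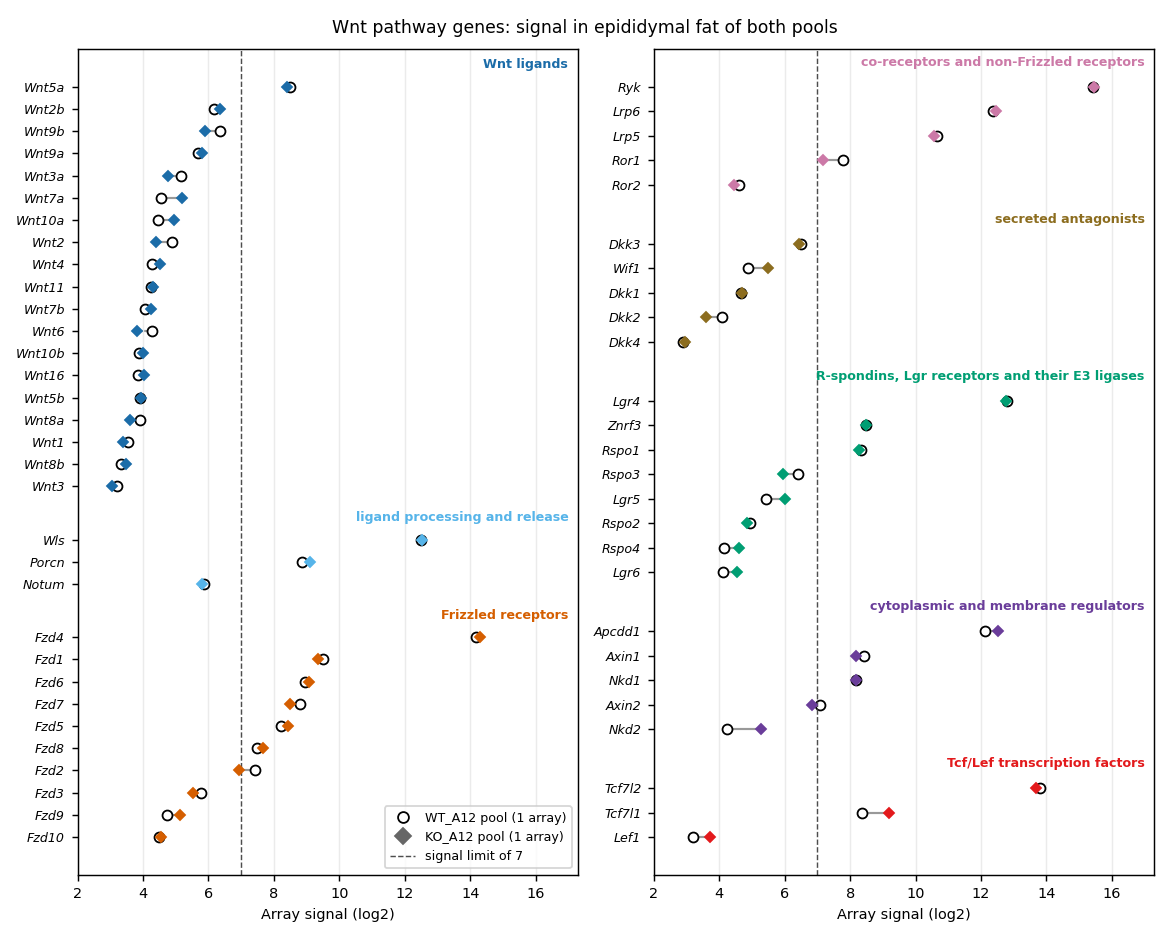
Log2 array signal (horizontal axis) of the 58 Wnt pathway genes, grouped by role, in the WT_A12 pool (open circles) and the KO_A12 pool (coloured diamonds), each 1 array of RNA pooled from 3 mice, with no error bar because each genotype is 1 value. The dashed line marks a log2 signal of 7, which 21 genes exceeded on both arrays, and the widest gap is that of Nkd2, at signals of 4.23 and 5.28.

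The 2 arrays also differed in genes of other cells and organs. The log2 signal of the targeted gene Iah1 was 9.52 in WT_A12 fat and 8.35 in KO_A12 fat. By real-time qPCR and western blot, the paper detected neither Iah1 mRNA nor IAH1 protein in KO_A12 mice. What the remaining array signal of Iah1 stands for was not tested. The signals of 9 white adipocyte markers differed by -0.10 to 0.34, and all 9 macrophage markers were lower in the KO_A12 pool, by a median of -0.67 on the log2 scale. Higher in KO_A12 fat were 9 of 10 hepatocyte markers (median difference 3.68) and all 6 seminal vesicle markers (median 6.35), while all 10 testis germ cell markers were lower (median -1.27). Also higher were all 10 smooth muscle markers (median 0.29) and 7 of 9 epididymis markers (median 0.89). Of these 9 epididymis markers, 8 were below the background medians on both arrays. In pooled tissue RNA, fewer cells of a type and less RNA per cell cannot be told apart, and the part of these cells in the values below was not tested.

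Of the 19 Wnt ligands on the array, only Wnt5a had a log2 signal over 7. Wnt5a, a ligand that acts mostly without beta-catenin, had a log2 signal of 8.50 in WT_A12 fat and 8.40 in KO_A12 fat, a difference of -0.10. Wnt2b, a beta-catenin activating ligand, had signals of 6.18 and 6.36, and Wnt9b of 6.35 and 5.88. The signal of Wnt9a was 5.69 in WT_A12 fat and 5.81 in KO_A12 fat. These 4 were the only ligands that were not below the background medians on both arrays. Wnt10b, the ligand best known for restraining adipogenesis in mice, was among the other 15, with log2 signals of 3.87 and 4.01. The signals of Wnt3a, a strong activator of beta-catenin, were 5.16 and 4.76, and those of Wnt7a were 4.54 and 5.19, a difference of 0.65 that was the largest of the ligands in absolute size. Wnt2 had the lowest difference, -0.49, with signals of 4.88 and 4.39. All of these lie where the array hardly separates a transcript from background. Log2 signals between 3.06 and 4.93 were measured for the remaining 11 ligands, namely Wnt1, Wnt3, Wnt4, Wnt5b, Wnt6, Wnt7b, Wnt8a, Wnt8b, Wnt10a, Wnt11 and Wnt16, and their differences ran from -0.46 for Wnt6 to 0.47 for Wnt10a. The median log2 difference of the 19 ligands was 0.08, beside 0.05 for all 7388 probe sets with a mean signal up to 5. After quantile scaling the ligand median was 0.01. Ligand transcripts other than that of Wnt5a thus gave no signal over the study's limit in either pool.

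The genes that prepare Wnt ligands for secretion were measured more clearly. Wls, which carries Wnt proteins to the cell surface, had log2 signals of 12.50 in WT_A12 fat and 12.51 in KO_A12 fat. Porcn, the enzyme that attaches the lipid to Wnt proteins, had signals of 8.85 and 9.11, a difference of 0.26. Notum, a secreted enzyme that removes this lipid and is also a beta-catenin target, had signals of 5.87 and 5.81. None of the 3 differed by more than 0.26 on the log2 scale.

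Promoter sequences of 38 of the 58 genes were found in the RefSeq table for GRCm38.p6. It gives 250 bases before and 50 bases after a start of the gene, and some genes have several starts. The letters CTTTGAT and CTTTGAA, which Tcf/Lef factors recognise, were searched on both strands. They occurred in 3 of the 38 genes, or 7.89%, and in 9.88% of the 27025 genes of the table. Counted by promoter, they occurred in 3 of 45, or 6.67%, and in 8.65% of all 32851 promoters. The 3 genes were Wnt5b, Wnt11 and Dkk1, a secreted antagonist and known target of the pathway. The stretches are shown because they are the only places in these promoter windows of Wnt genes where these letters were found, with the letters (or their complement, read on the other strand) in capitals.
Wnt5b (GRCm38.p6, chr6:119449424-119449484, minus strand): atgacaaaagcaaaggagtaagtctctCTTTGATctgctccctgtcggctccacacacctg
Wnt11 (GRCm38.p6, chr7:98835034-98835094, plus strand): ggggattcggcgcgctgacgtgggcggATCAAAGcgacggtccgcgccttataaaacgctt
Dkk1 (GRCm38.p6, chr19:30549580-30549640, minus strand): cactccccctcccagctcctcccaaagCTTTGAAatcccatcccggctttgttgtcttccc
Relative to the start that belongs to the promoter shown, the first capital lies at position -71 in Wnt5b, at -51 in Wnt11 and at -117 in Dkk1. All 3 genes had signals below the background medians in both pools, with 3.92 and 3.93 for Wnt5b, 4.23 and 4.32 for Wnt11, and 4.66 and 4.71 for Dkk1 on the log2 scale. The match of letters is a description and says nothing of binding in fat. The promoters of the Wnt pathway genes were rich in CG pairs. Their median was 26.50 pairs in 300 bases, compared with 13.00 over 17492 protein-coding genes. It was 22.25 for the 12 genes with a log2 signal over 7 on both arrays and 28.00 for the other 26.

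Among the 10 Frizzled receptors, 7 had a log2 signal over 7 on at least 1 array, and their differences were small. Fzd4, which also serves as the receptor of norrin in blood vessels, had log2 signals of 14.19 in WT_A12 fat and 14.29 in KO_A12 fat. Fzd1 had signals of 9.51 and 9.35, and Fzd6, a receptor of planar cell polarity, of 8.96 and 9.06. For these 3 the pools differed by less than 0.2 on the log2 scale. Of 9 endothelium markers 8 were higher in KO_A12 fat, by a median of 0.34, and their part in the value of Fzd4 was not tested. The signals of Fzd7 were 8.79 and 8.50, those of Fzd5 were 8.22 and 8.44, and those of Fzd8 were 7.50 and 7.67. Fzd2, a receptor of Wnt5a, had the largest absolute difference of the family, -0.49, with a signal of 7.43 in WT_A12 fat and 6.94 in KO_A12 fat. The array of the KO_A12 pool thus measured Fzd2 just under the signal limit. Of the 3 receptors below 7, Fzd3 had signals of 5.76 and 5.54, Fzd9 of 4.75 and 5.13, and Fzd10 of 4.48 and 4.54. The median log2 difference of the 10 receptors was 0.08.

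The co-receptors of the beta-catenin branch were measured with clear signals and were nearly equal in both pools. Lrp6 had log2 signals of 12.35 in WT_A12 fat and 12.46 in KO_A12 fat, and Lrp5 had signals of 10.65 and 10.56. Ryk, a Wnt receptor related to receptor tyrosine kinases, had signals of 15.41 and 15.45. All 3 differed by less than 0.2 on the log2 scale. Ror1, a receptor of Wnt5a, had a log2 signal of 7.79 in WT_A12 fat and 7.16 in KO_A12 fat. The KO_A12 value lay under the highest background control of that array, 7.21. The difference of Ror1, -0.63, was the lowest of all 58 genes. Ror2, its close relative, had signals of 4.59 and 4.45, below the background medians. Ror1 was the only Wnt pathway gene called lower when the limit was relaxed to 1.5-fold, at which 3.71% of all probe sets were called lower. The central 95% of the log2 differences of the 3435 probe sets with a mean signal between 7 and 9 reached from -0.93 to 0.84, and both Ror1 and Fzd2 lay inside it. Fibroblasts are among the cells known to express Ror1 and Fzd2. Lower values were found for 7 of 9 adipose progenitor and fibroblast markers, whose log2 differences had a median of -0.35 and ranged from -1.31 for Lum, the matrix proteoglycan lumican, to 0.09 for Col15a1, and whose signals ran from 6.04 to 16.02. The part of these cells in the values of Ror1 and Fzd2 was not tested.

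**Figure D2:**
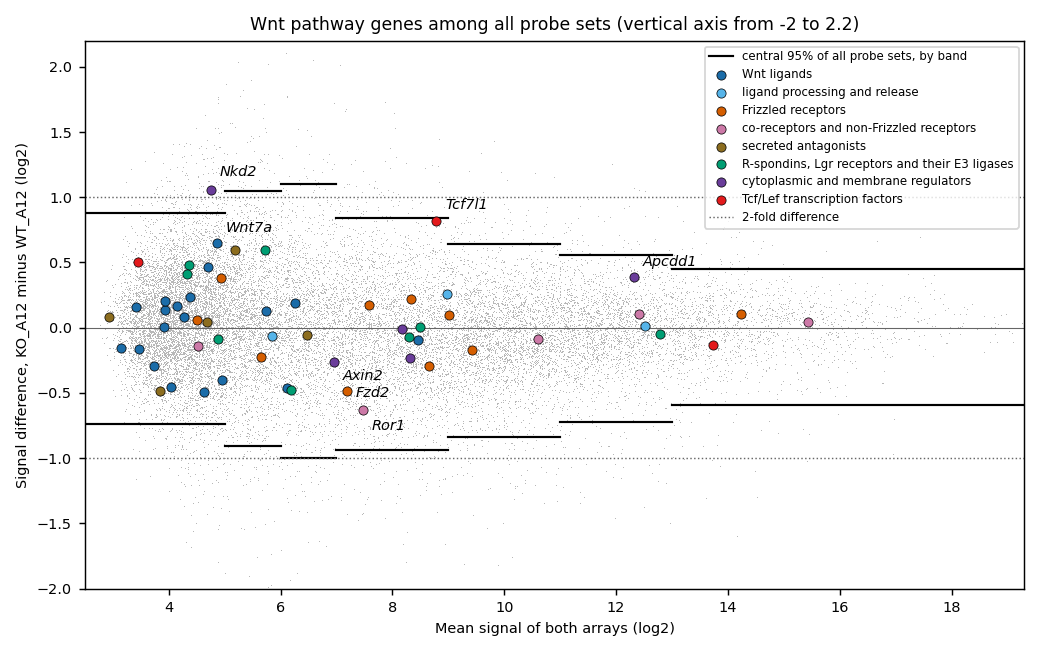
Log2 difference, KO_A12 minus WT_A12 (vertical axis), against the mean log2 signal of both arrays (horizontal axis) for all probe sets (grey dots, of which 64 lie outside the vertical range) and the 58 Wnt pathway genes (coloured by role). Black lines bound the central 95% of all probe sets in bands of signal and dotted lines mark a 2-fold difference, and of the 58 genes only Nkd2 lies outside its band.

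No secreted antagonist among the Dkk genes and Wif1 reached a log2 signal of 7. Dkk3, a divergent member of the Dickkopf family, had log2 signals of 6.51 in WT_A12 fat and 6.45 in KO_A12 fat. Wif1, which binds Wnt ligands outside the cell, had signals of 4.89 and 5.48. Dkk2 had signals of 4.09 and 3.61, and Dkk4 of 2.89 and 2.97. Together with Dkk1, whose signals stand beside its promoter, 4 of these 5 genes were below the background medians on both arrays. The 5 genes had a median log2 difference of 0.04.

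R-spondins strengthen Wnt signaling by binding Lgr receptors and withdrawing the membrane ubiquitin ligases that remove Frizzled receptors from the cell surface. Lgr4, the only Lgr receptor with a log2 signal over 7, had signals of 12.80 in WT_A12 fat and 12.75 in KO_A12 fat. Znrf3, one of these ligases and itself a target of beta-catenin, had a signal of 8.49 on both arrays. Rspo1 had signals of 8.33 and 8.26. These 3 differed by less than 0.1 on the log2 scale. Rspo3 had signals of 6.42 and 5.94, a difference of -0.48 under the signal limit. Lgr5, a stem cell receptor and beta-catenin target, had signals of 5.43 and 6.02, a difference of 0.59. These signals lie near the background medians of the 2 arrays, 5.75 and 5.61. In mouse liver Lgr5 is made by hepatocytes near the central vein. Of 10 hepatocyte markers 9 were higher in the KO_A12 pool, and the median log2 difference of the 10 was 3.68. Apoa1 had log2 signals of 4.47 and 8.66. Cyp2e1, an enzyme of the same zone, had 12.55 and 12.76, a difference of 0.21 from a signal already high in WT_A12 fat. The part of liver RNA in the value of Lgr5 was not tested. Rspo2, Rspo4 and Lgr6 had signals between 4.12 and 4.92 on both arrays, below the background medians. The median log2 difference of these 8 genes was -0.02.

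The inhibitors that act inside the cell or in its membrane lay on both sides of 0. Apcdd1, a membrane inhibitor that is induced by beta-catenin, had log2 signals of 12.13 in WT_A12 fat and 12.52 in KO_A12 fat, a difference of 0.39. Axin1, the scaffold of the complex that marks beta-catenin for breakdown, had signals of 8.43 and 8.19. Axin2, its relative that is induced by the pathway, had signals of 7.09 and 6.83, a difference of -0.26 that carried it from just over to just under the signal limit. The 2 targets Apcdd1 and Axin2 therefore lay on opposite sides of 0, and both stayed inside the central 95% of probe sets with like signal. Nkd1, which binds Dishevelled and is a feedback target, had signals of 8.18 and 8.17. Nkd2, its relative, had a signal of 4.23 in WT_A12 fat and 5.28 in KO_A12 fat. This difference of 1.05 was the largest of all 58 genes, yet both signals were below the background medians. Without the signal limit Nkd2 was the 1 Wnt pathway gene called higher, while 1.46% of all probe sets were called higher and 1.35% lower. Its difference was 0.99 after quantile scaling and 0.99 with the lowess trend removed, which ends that call. It was also the 1 gene outside the central 95% of its signal band, which reached from -0.74 to 0.88 for mean signals up to 5.

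The transcription factors at the end of the pathway held the largest difference among the genes with clear signals. Tcf7l1, a Tcf factor that acts mainly as a repressor, had a log2 signal of 8.37 in WT_A12 fat and 9.19 in KO_A12 fat, a difference of 0.81. It was the only gene of the 58 called higher at a limit of 1.5-fold, at which 2.19% of all probe sets were called higher. Tcf7l1 lay just inside the central 95% for mean signals between 7 and 9, whose upper bound was 0.84. Its mean signal of 8.78 was close to the edge of that band, and the band from 9 to 11 had an upper bound of 0.64. The difference of Tcf7l1 was 0.89 after quantile scaling and 0.89 with the lowess trend removed. Tcf7l2, a main partner of beta-catenin in many adult tissues, had signals of 13.80 and 13.67. The 2 factors with signals over 7 on both arrays thus stood at 0.81 and -0.13. Lef1, which is a gene of lymphocytes as well as a target of the pathway, had signals of 3.20 and 3.70, below the background medians. Among 9 T lymphocyte markers 7 were higher in KO_A12 fat, and the median difference was 0.28. A signal over 7 on either array was found for 3 of them, namely Cd2 with signals of 7.08 and 7.96, Cd4 with 7.90 and 8.20, and Cd3e with 7.31 and 6.92. The part of lymphocytes in the value of Lef1 was not tested.

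Target genes that rise when beta-catenin is active can serve as a readout of the pathway. Of 11 such genes among those described above, 9 were measured, namely Axin2, Lef1, Nkd1, Notum, Znrf3, Lgr5, Apcdd1, Dkk1 and Dkk4. None was called higher or lower. Over all probe sets 0.567% were called higher and 0.757% lower, so this count lies near the background and is not a result about the targets. The median log2 difference of the 9 targets was 0.04. The 4 with a log2 signal over 7 on at least 1 array, Apcdd1, Znrf3, Nkd1 and Axin2, ranged from -0.26 to 0.39 with a median of 0.00. Of 10 further measured targets outside the symbol rule, none was called either, again near the background, and their median was -0.08. Ccnd1 was on that list too, but no probe set carried its symbol. Cd44, a hyaluronan receptor that leukocytes also carry, had signals of 13.41 and 12.66, a difference of -0.75. Myc, the growth regulator, had signals of 9.77 and 9.46, and Ccn5, a matrix protein of the CCN family, of 9.82 and 9.78. The other 7 of these targets, among them Sp5 and Tnfrsf19, were not over 7 on either array. As all 9 macrophage markers were lower in the KO_A12 pool, with log2 differences from -1.27 to -0.41, their part in the value of Cd44 was not tested.

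Genes of the pathway outside the symbol rule showed 1 called difference. Over all probe sets 0.567% were called higher and 0.757% lower, so the counts called in these short lists lie near the background. Among 11 further antagonists and membrane regulators, Sfrp4 had log2 signals of 11.31 in WT_A12 fat and 9.19 in KO_A12 fat and was called lower. The other 10 were not called. By real-time qPCR the paper found Sfrp4 mRNA significantly lower in KO_A12 epididymal fat, and no significant change of it in retroperitoneal fat. The median of the 11 genes was 0.00. Frzb had signals of 6.92 and 7.75, Sfrp2 of 10.53 and 11.22, and Sfrp1 of 10.19 and 10.56, all higher in KO_A12 fat, while Sfrp5, another relative of Sfrp4, had signals of 14.42 and 14.35. Of 24 measured genes that carry the signal through the cytoplasm and nucleus none was called, and their median was also 0.00. Ctnnb1, the gene of beta-catenin itself, and Dvl2 were on this list too, but no probe set carried their symbols. In the paper, real-time qPCR of beta-catenin mRNA in epididymal fat showed no significant difference. Cby1, an antagonist of beta-catenin, had signals of 8.45 and 7.66, a difference of -0.79, and Pygo1, a nuclear co-factor, had signals of 6.75 and 7.31, a difference of 0.56. Dvl3, one of the Dishevelled proteins, stood at -0.41 and Btrc, the subunit that recognises beta-catenin for breakdown, at -0.34. Gsk3b, the kinase that marks beta-catenin for breakdown, had signals of 15.00 and 15.20, and Apc, its partner, of 12.11 and 12.32. Of 12 genes of planar cell polarity, which include Fzd3 and Fzd6, none was called and the median was 0.05. In this list Celsr3, an adhesion receptor, had signals of 9.70 and 10.21, Vangl1 of 8.18 and 7.83, Prickle2 of 7.17 and 6.91, and Daam2 of 9.47 and 9.69. The plot of the differences by role sets these lists beside the Wnt pathway genes.

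**Figure D3:**
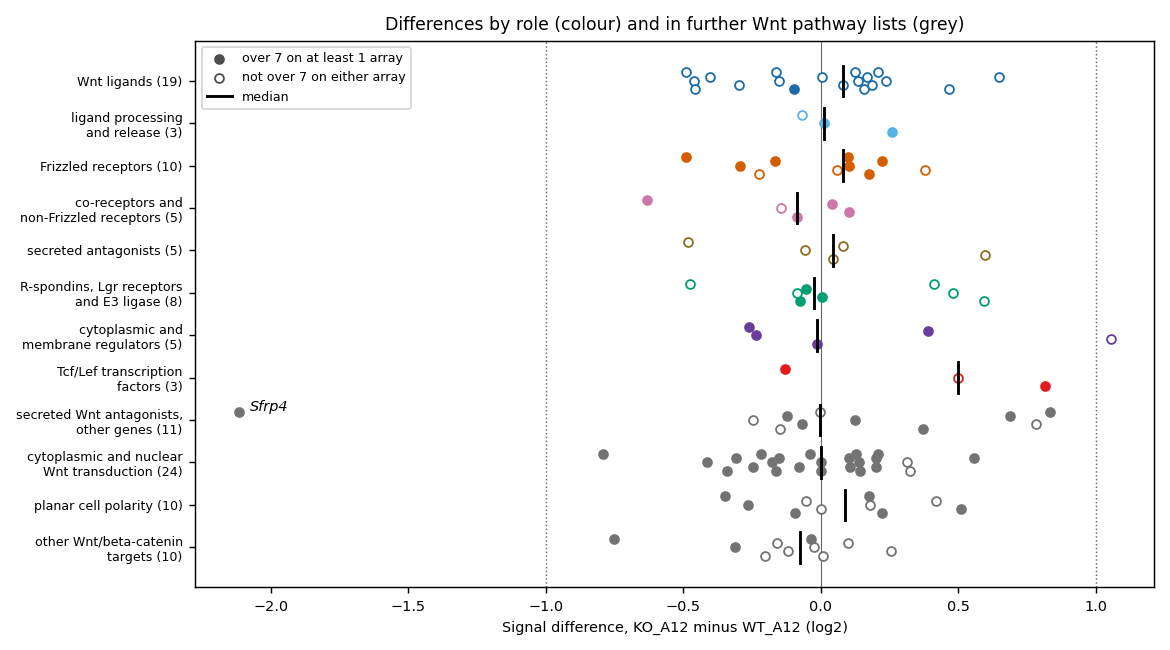
Log2 difference, KO_A12 minus WT_A12 (horizontal axis), of each of the 58 Wnt pathway genes by role (colours) and of 55 further genes of the pathway in 4 lists (grey), with the number of genes in brackets, filled points for genes over 7 on at least 1 array and a black bar for the median (the planar cell polarity row leaves out Fzd3 and Fzd6, which are drawn as receptors). Sfrp4 is the only point below -1, and the role medians lie between -0.09 and 0.50, the latter over 3 Tcf/Lef factors.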

How the data were processed

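Total RNA from the epididymal fat of 3 mice per genotype was pooled, labelled from 100 ng and hybridized to Clariom S Mouse Arrays. Signals were summarised by the authors with SST-RMA (their methods spell it STT-RMA) in the GeneChip Console Software, and the deposited values are log2 signals per probe set, used here as they stand. The submitters' processing notes name RMA, and the genome build is not given in the sources used here. This normalization brings the distributions of the arrays close to each other, so a shift shared by most genes would not be seen. A small offset that depends on signal remained. The median log2 difference was 0.05 for mean signals up to 5 and -0.08 for those between 9 and 11. Of 28846 rows, 6640 controls were left out and 22206 probe sets kept, of which 19572 have 1 symbol in the platform annotation, 0 several and 2634 none. For genes with more than 1 probe set, that with the highest mean signal was used. The symbols of all 58 Wnt pathway genes equalled those of RefSeq (GRCm38.p6) by Entrez ID.

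The call was the study's 2-fold limit with a log2 signal over 7. Which array had to pass is not stated in the paper, and was chosen here as KO_A12 for higher and WT_A12 for lower. Over all probe sets 126 were called higher, which equals the paper's count, and 168 lower, which nearly does. With 1 array per genotype no test was possible, and the number of arrays limits the precision. Bands of mean signal were bounded at 5, 6, 7, 9, 11 and 13. The genes named are those over 7 on an array, those differing by over 1, the targets, the highest and lowest signal of each role, and, of each further list, up to 4 genes with the largest absolute difference among those over 7 on an array; others were added for their role. The genes and lists were chosen with earlier results of these data known. Scalings (median centring, quantile, lowess with span 0.3), other limits and summaries were tried. The code for the calls was run on simulated data with planted shifts larger than the limit, in probe sets of clear signal only. This checked the code and says nothing of calls at weak signals. Python 3.11.15, numpy 2.4.6, pandas 2.3.3, statsmodels 0.14.6 and matplotlib 3.10.9 were used.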

Additional observations from a re-analysis of the deposited data

How the results depend on the processing

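No paired analysis was possible because there was only 1 array per genotype, and for the same reason no array could be left out. Moves under 0.1 on the log2 scale counted as kept for a list median, and moves under 1 robust standard deviation, taken over the 500 probe sets nearest in signal, for a gene. The number of Wnt pathway genes called higher was 1 without a signal limit (Nkd2) and 1 at 1.5-fold (Tcf7l1), and the number called lower was 1 at 1.5-fold (Ror1), as these limits by construction admit more genes. Both counts stayed at 0 under 3 scalings of the arrays, with a signal limit of 8, with the limit on both arrays, at 3-fold, and with Dkkl1 added. Of 77 alternative values of 15 list medians 74 were kept. The other 3 were means used instead of medians, at which the R-spondin, Lgr and ligase genes stood at 0.10, the cytoplasmic and membrane regulators at 0.19 and the Tcf/Lef factors at 0.39, over 8, 5 and 3 genes. Under the scalings all 219 values of 73 named genes were kept, the largest move being 0.09, and the sign turned for Wnt5b, Fzd10, Dkk1, Nkd1, Znrf3 and Ccn5, all within 0.06 of 0. The scalings started from already normalized signals. Signal over background limits the reading of the 35 genes not over 7 on either array.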

Other observations

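A further list of 50 genes that act on Wnt signaling or beside it was written after the values above had been seen. It holds cadherins and catenins, Norrin and its partners, CCN proteins, glypicans, Dact proteins, effectors without beta-catenin and the Yap/Taz branch. Of these 50 genes, 1 was called higher and 1 lower in the KO_A12 pool, and their median log2 difference was 0.00. Over all probe sets 0.567% were called higher and 0.757% lower, so that 1 gene of 50 in each direction lies near the background. Cdh2, N-cadherin, which binds beta-catenin at cell contacts, had log2 signals of 7.12 in WT_A12 fat and 8.24 in KO_A12 fat. Tmem67, a protein of the ciliary transition zone, had signals of 7.85 and 6.77. The weaker signal of each called gene lay under the highest background control of its array, 7.14 for WT_A12 and 7.21 for KO_A12. Dact2 had the lowest difference of the list, -1.10. Its signals of 5.33 and 4.23 were below the background medians, and it was not called. Yap1, a transcriptional co-activator of the Hippo pathway, had signals of 8.75 and 9.44, its partner Tead1 of 11.19 and 11.36, and the targets Ccn1 and Ccn2 had differences of 0.42 and 0.50. Gpc4 and Gpc6, glypicans of the cell surface, lay on opposite sides of 0, at 0.72 and -0.55. Ndp, which encodes norrin, the ligand of Fzd4, had signals of 5.27 and 4.26, both below the background medians. Tspan12, its co-receptor, had signals of 16.30 and 16.24.

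Cdh2 is also made by mesothelium and by hepatocytes. Of 10 mesothelium markers 8 were higher in KO_A12 fat, by a median of 0.47, and Upk3b had signals of 9.61 and 10.51, while 9 of 10 hepatocyte markers were higher. The part of these cells in the value of Cdh2 was not tested. Dkkl1, a testis gene whose symbol begins like those of the Dickkopf genes without a digit after it, had log2 signals of 6.24 and 5.57, and all 10 testis germ cell markers, Dkkl1 among them, were lower in the KO_A12 pool.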
